A study of Mus musculus with 22 samples.

Results

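The axon guidance ligands and receptors are the genes of the semaphorin, plexin, neuropilin, ephrin, Eph, Slit, Robo, netrin and Unc5 families. They were chosen by gene symbol alone (Sema3 to Sema7, the plexins A to D, Nrp1 and Nrp2, the ephrins and Eph receptors of class A and B, Robo1 to Robo4, Slit1 to Slit3, Ntn1 to Ntn5 and Unc5a to Unc5d), and 71 of the 28711 features of the authors' normalised table matched. Of these, 68 encode protein, 35 of them ligands and 33 receptors, and 3 are antisense RNAs of the plexin gene Plxna4. The ligands comprise 7 secreted class 3 semaphorins, 13 membrane semaphorins, 5 ephrin-As, 3 ephrin-Bs, 3 Slits and 4 netrins. The receptors comprise 9 plexins, 2 neuropilins, 9 EphA and 5 EphB receptors, 4 Robo and 4 Unc5 receptors.

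RNA of whole lower first molars of mice was sequenced in bulk, on postnatal day 5 (P5) or 11 (P11). The mutant mice carried 1 copy of the missense allele Tgfbr2-G357W, a model of Loeys-Dietz syndrome in a receptor of transforming growth factor beta, and are called Het here; their littermates with both copies of Tgfbr2 intact are called WT. There were 6 WT and 6 Het libraries at P5 and 5 WT and 5 Het libraries at P11. The labels name no Cre line or promoter that limits the allele to a cell type, and counts per gene cannot show which allele a library holds.

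The series' text names 5 Het and 8 WT mice. With 22 libraries some animals may have given more than 1, and the p-values, which treat libraries as separate, may then be too small. The libraries held 32903949 to 45343744 counts on genes. The sixth P5 Het library is P5 by its title and library name and P11 by its tissue and treatment fields, and was used as P5. All libraries carry the same batch label, but their names hold a prefix that the sources used here do not explain (3, 4 or 5 at P5, 1 or 2 at P11), and it runs through both genotypes except for prefix 5, which only P5 Het 5 and 6 carry. Ameloblast markers summed to 84000 to 172000 CPM (a gene's counts scaled to a common library size) and odontoblast markers to 11800 to 37100 CPM, so the labelled dental tissue had its defining transcripts in every library. Osteoclast markers summed to 66.1 CPM in P5 Het 6, the library with 2 ages in its labels. They summed to 56.7 to 98.1 CPM over the P5 libraries and to 311 to 506 CPM over the P11 libraries. By the mean of log2 CPM over a list, markers of tissue outside the tooth were raised in 5 libraries. Oral keratinocyte markers stood at 7.4, 6.15 and 6.65 in P11 WT 4, P11 WT 5 and P11 Het 2 against 2.35 to 4.15 in the other P11 libraries, and at 1.37 in P5 Het 4 against −0.34 to 0.4 in the other P5 libraries. Skeletal muscle markers were at 2.83 in P11 Het 2 and at 1.76 in P5 Het 5. By summed CPM the keratinocyte list ranked the libraries differently: P5 Het 4 (1040) lay within the P5 range of 922 to 1110, and P11 Het 5 (6130), which is not among the 5, lay above P11 Het 2 (4940). Counts of called members, and some single values, are given both ways where they change without these libraries. Without them the P11 WT libraries all have prefix 1 while P11 Het keeps both prefixes, so at P11 that fit mixes prefix with genotype.

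Axon guidance proteins are cues and receptors that steer growing nerve fibres. Class 3 semaphorins are secreted and act through neuropilins paired with A-type plexins, except Sema3e, which binds Plxnd1 directly; membrane semaphorins bind plexins without a neuropilin. Ephrins are tethered to the cell surface and bind Eph receptor kinases on neighbouring cells, Slits bind Robo receptors, and netrins attract through Dcc and repel through Unc5 receptors. In teeth these cues are known for the timing of innervation, with nerve fibres entering the dental pulp after birth, and the same proteins act in blood vessels, epithelium and bone.

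Levels between genes were compared as CPM per kilobase of exon. The ephrin Efna5, a ligand anchored to the membrane by a lipid, stood far above the other members, at a mean of 726 CPM per kb over the P5 libraries (the 99.9th percentile of the tested genes that have an exon length) and 301 at P11 (the 99.7th percentile). The next were the membrane semaphorin Sema4b, at 49.9 and 77.5 CPM per kb, and the ephrin Efna1, at 38.3 and 40.8. Among receptors the B-type plexin Plxnb2 was the highest, at 21.8 and 30.7 CPM per kb. The highest Eph receptor was Ephb3 at both ages (17.7 and 11.4 CPM per kb), the highest Robo was Robo1 (6.81 and 4.93), and the highest Unc5 was Unc5b (13.1 and 14.3).

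Among neuropilins, Slits and netrins the order of the levels per kb changed with age. Nrp1 was the higher neuropilin at P5, at 3.74 CPM per kb against 2.98 for Nrp2, and Nrp2 was the higher at P11, at 10.4 against 3.93. Slit3 stood above Slit2 at P5 (5.14 and 2.71 CPM per kb) and level with it at P11 (4.69 and 4.86). Among netrins, Ntn4 (0.794), Ntn3 (0.727) and Ntn1 (0.695) were close together at P5, and Ntn1 led at P11 with 2.77 CPM per kb.

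**Figure D1:**
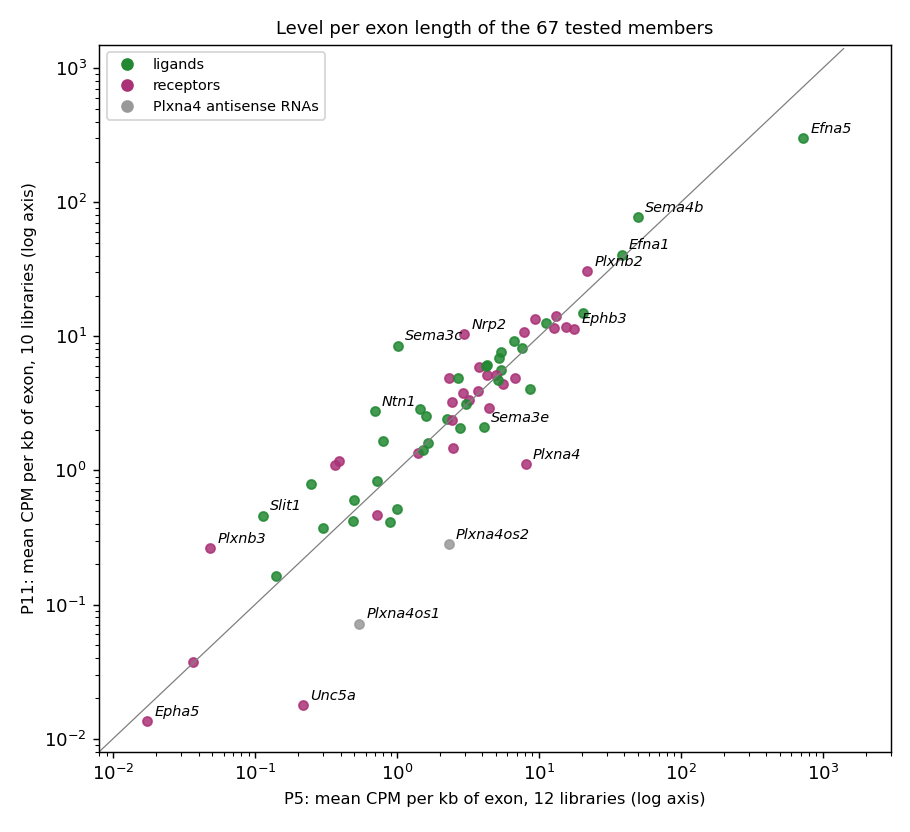
Level of each of the 67 tested members as mean CPM per kb of exon at P5 (x axis, 12 libraries) and at P11 (y axis, 10 libraries), both on log axes, with the line of equal level in grey. Efna5 lies apart at the top right (726 and 301 CPM per kb), Sema3c, Nrp2 and Ntn1 lie above the line, and Plxna4, its antisense RNAs and Unc5a lie below it.

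At the other end, 4 members stayed under the filter on low counts and were not tested: the EphA receptors Epha6, Epha8 and Epha10 and the antisense RNA Plxna4os3, none of which exceeded 0.278 CPM in any library. Epha5 (0.0174 and 0.0135 CPM per kb) and Robo3 (0.0365 and 0.0372) were tested at levels near the floor of the assay. Plxna4os3 averaged 0.146 CPM at P5 and 0.00492 at P11 in WT, 0.157 and 0.0283 in Het, and was at 0 in 4 of the 5 P11 WT libraries.

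Sequence upstream of 4 members is shown because their values carry the results below: Sema3e, the member called between genotypes, Efna5, the highest member, Unc5a, the receptor with the largest fall with age, and Ephb2, a receptor that rose. The windows are the 250 bases before the RefSeq start on GRCm38.p6, in the direction of the gene, and lie outside the annotated gene: chr5:14025026-14025275 on the plus strand for Sema3e, chr17:62881318-62881567 on the minus strand for Efna5, chr13:54949161-54949410 on the plus strand for Unc5a and chr4:136836013-136836262 on the minus strand for Ephb2. The bases just after the start were found in an annotated transcript of the gene for Sema3e, Efna5 and Unc5a, but not for Ephb2. Capitals mark the GC box, GGGCGG on either strand.
Sema3e: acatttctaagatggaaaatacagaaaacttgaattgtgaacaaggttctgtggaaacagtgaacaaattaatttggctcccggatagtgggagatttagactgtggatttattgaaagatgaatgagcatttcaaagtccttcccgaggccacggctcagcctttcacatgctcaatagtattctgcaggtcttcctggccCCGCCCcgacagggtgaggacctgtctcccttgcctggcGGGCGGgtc
Efna5: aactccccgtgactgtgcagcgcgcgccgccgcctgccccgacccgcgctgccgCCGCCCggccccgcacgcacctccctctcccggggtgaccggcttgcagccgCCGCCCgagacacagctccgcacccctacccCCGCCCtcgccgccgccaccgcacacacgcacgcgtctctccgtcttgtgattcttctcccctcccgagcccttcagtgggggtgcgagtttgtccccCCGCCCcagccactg
Unc5a: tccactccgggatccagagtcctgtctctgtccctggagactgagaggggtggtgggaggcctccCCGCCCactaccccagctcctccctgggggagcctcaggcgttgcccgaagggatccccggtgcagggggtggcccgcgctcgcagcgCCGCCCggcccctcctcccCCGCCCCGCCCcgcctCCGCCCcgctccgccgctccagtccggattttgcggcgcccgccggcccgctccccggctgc
Ephb2: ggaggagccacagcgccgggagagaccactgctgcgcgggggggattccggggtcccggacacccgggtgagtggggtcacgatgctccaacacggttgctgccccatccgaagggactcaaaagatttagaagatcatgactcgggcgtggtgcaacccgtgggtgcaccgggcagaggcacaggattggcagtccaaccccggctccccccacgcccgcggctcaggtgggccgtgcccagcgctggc
The Sema3e window held 2 GC boxes at a GC content of 48%, the Efna5 window 4 at 74.8%, the Unc5a window 5 at 76.8%, of which 1 pair overlaps, and the Ephb2 window none at 68.4%. GC boxes occurred in 32.7% of the 32851 windows of this length in the RefSeq table and in 53 (70.7%) of the 75 windows of the 59 members it lists. The SMAD motif CAGAC, on either strand, was in none of the 4 windows shown, in 42.2% of all windows and in 50.7% of the members' windows. The AP-1 motif TGANTCA, also on both strands, was in none of the 4, in 6.75% of all windows and in 4% of the members'.

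Most members differed between the ages. Prefixes 1 and 2 occur only at P11 and 3 to 5 only at P5, so age and prefix cannot be told apart. From P5 to P11, 27 of the 67 tested members rose and 17 fell in WT, which is 65.7% of them against 49.4% of all 21510 genes tested, of which 24.8% rose and 24.7% fell (edgeR quasi-likelihood test, adjusted p under 0.05 after Benjamini-Hochberg correction over all genes tested). In Het 25 rose and 19 fell, again 65.7%, against 47.8% of all genes, of which 24.4% rose and 23.4% fell. Without the 5 libraries with raised markers 27 rose and 16 fell in WT and 25 rose and 18 fell in Het. The median log2 fold change of the members was 0.16 in WT and 0.07 in Het, beside −0.01 over all genes in each. Of the members, 23 rose in both genotypes and 17 fell in both, 8 were called in 1 genotype only, 19 in neither, and none in opposite directions. The 8 were Robo2, Epha4, Sema3d and Efnb1 (higher in WT), Sema4b and Efna1 (higher in Het) and Plxna3 and Sema6c (lower in Het), and no interaction of genotype with age was called for them. The ranges of the P5 and P11 libraries did not overlap for 36 members in WT and 35 in Het, against 32% and 30.3% of all genes. Marker lists of several cell types moved with age as well. All 13 tested keratinocyte markers were higher at P11 in both genotypes, and their summed level ran from 922 to 1110 CPM over the P5 libraries and from 4040 to 8540 CPM over the P11 libraries. Osteoclast markers were higher in 10 of 10 in both genotypes, and osteoblast and bone markers in 8 of 10, with summed levels of 5270 to 7670 CPM at P5 and 11400 to 16700 CPM at P11. Of 14 ameloblast markers 7 were higher and 7 lower in each genotype, and their summed level ranged from 156000 to 172000 CPM in P5 WT and from 84000 to 92100 CPM in P11 WT. Of 13 tested Schwann cell markers 9 were higher in each and 4 lower in WT and 3 in Het, while their summed level had a median of 236 CPM in P5 WT and 211 in P11 WT. Of 14 endothelial markers 7 were higher in each genotype and 1 was lower in Het. Their summed level was 303 to 345 CPM at P5 and 366 to 463 CPM at P11. Of 11 mural cell markers 8 were higher and 2 lower in each genotype. These summed to 3410 to 6110 CPM at P5 and 7100 to 12300 CPM at P11. In whole molars a change in the share of a cell type and a change in RNA per cell cannot be told apart, and the part of these markers in the age differences was not tested.

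**Figure D2:**
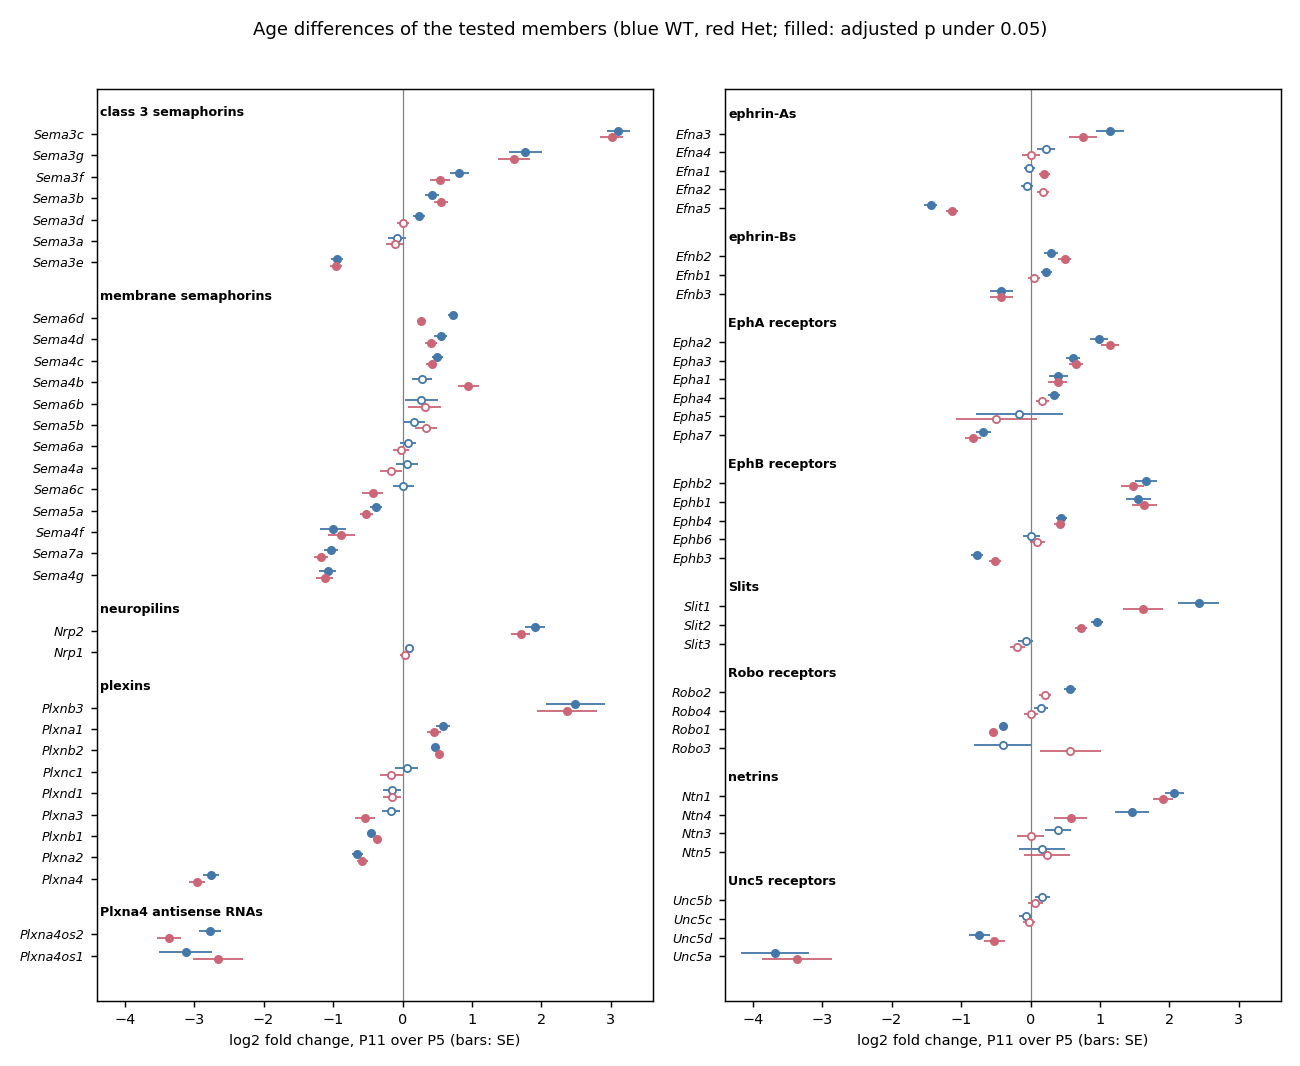
Log2 fold change of each tested member from P5 to P11 with its standard error, WT in blue and Het in red, grouped by family; filled points have an adjusted p under 0.05. Sema3c lies furthest to the right (3.11 in WT) and Plxna4, its antisense RNAs and Unc5a furthest to the left (−2.66 to −3.68 over both genotypes).

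Among the secreted class 3 semaphorins, 5 of 7 rose and 1 fell in WT, beside 24.8% and 24.7% of all genes. Sema3c, a guidance cue also known from outflow tract and vessel formation, stood at 6.71 to 9.52 CPM (median 7.72) in P5 WT and at 4.75 to 7.68 (median 6.78) in P5 Het. At P11 it read 53.2, 64.7, 60.1, 79 and 84.9 CPM in WT and 45.5, 43.9, 39.9, 66 and 70.7 in Het, so every P11 library lay above every P5 library. The log2 fold change was 3.11 ± 0.16 (SE) in WT and 3.01 ± 0.16 in Het (edgeR adjusted p 9.78e-14 and 2.37e-13). Without the 5 libraries with raised markers it was 2.91 and 3.1.

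Sema3g, a class 3 semaphorin known from endothelium, rose from 1.05 ± 0.438 to 3.61 ± 0.343 CPM in WT (SD, n = 6 and n = 5), a log2 fold change of 1.77 ± 0.24 (SE), with 1.60 ± 0.23 in Het. Sema3f and Sema3b also rose in both genotypes, by 0.82 and 0.42 in WT. Sema3d was called in WT alone (0.24 ± 0.09, adjusted p 0.028; in Het 0.01 ± 0.09), and the interaction of genotype with age was −0.23 ± 0.13 with an adjusted p of 0.541. Sema3a, the repellent best known for delaying dental pulp innervation, was not called, at 19.9 ± 3.5 CPM in P5 WT and 18.9 ± 2.11 in P11 WT (log2 fold change −0.08 ± 0.13). Sema3e fell in both, by 0.94 ± 0.09 in WT and 0.96 ± 0.09 in Het on the log2 scale.

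Membrane semaphorins moved in both directions, 3 of 13 higher and 4 lower in WT and 4 higher and 5 lower in Het. Of all genes 24.8% were higher and 24.7% lower in WT, and 24.4% and 23.4% in Het. Sema4b was the highest of them and its rise was called in Het (0.95 ± 0.15, edgeR adjusted p 1.44e-05) but not in WT (0.28 ± 0.15, adjusted p 0.129). It read 387, 330, 395, 363 and 347 CPM in P11 WT and 415, 577, 725, 363 and 475 in P11 Het, with the groups overlapping. The summed ameloblast markers of the same P11 Het libraries were 93200, 116000, 126000, 87400 and 102000 CPM, which is the same order. By mean log2 CPM they read 8.5, 8.42, 8.52, 7.79 and 7.76, a different order. The P11 WT sums were 92100, 84000, 89000, 89800 and 86200 CPM, not in the order of Sema4b. At P5 the sums ran from 124000 to 172000 CPM, with Sema4b at 203 to 365 CPM. The part of these markers was not tested. The Sema4b difference between genotypes in the age effect was 0.67 ± 0.21 with an edgeR adjusted p of 0.372. Sema6d, a ligand of A-type plexins, rose in both (0.72 ± 0.06 and 0.27 ± 0.06). Sema7a, which is anchored by a lipid and binds Plxnc1 and integrins, fell from 27.8 ± 3.57 to 13.7 ± 1.38 CPM in WT (SD, n = 6 and n = 5), and Sema4g fell from 7.69 ± 0.732 to 3.64 ± 0.358. Their log2 fold changes were −1.03 ± 0.10 and −1.08 ± 0.12 in WT and −1.17 ± 0.10 and −1.12 ± 0.12 in Het.

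The neuropilins, which give class 3 semaphorins their binding site, differed from each other. Nrp2 ranged from 26.3 to 42 CPM (median 34) in P5 WT and from 28.2 to 43.7 (median 36.7) in P5 Het. The values at P11 were 112, 137, 135, 122 and 137 CPM in WT and 140, 91.1, 97.4, 125 and 136 in Het. No P11 library came near the P5 range, and the log2 fold change was 1.91 ± 0.14 in WT and 1.70 ± 0.14 in Het (edgeR adjusted p 3.32e-11 and 2.77e-10). Nrp1 was not called, with 36.4 ± 2.9 CPM in P5 WT and 39.1 ± 2.04 in P11 WT (log2 fold change 0.10 ± 0.07).

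Plexins, the signalling receptors, held the steepest fall of an abundant member. Plxna4 (chr6:32144268-32588192 on GRCm38, minus strand), the A-type plexin that transmits Sema3a repulsion in sensory neurons, ranged from 110 to 130 CPM (median 114) in P5 WT and from 96.5 to 119 (median 113) in P5 Het. The P11 libraries stood at 15.5, 14.6, 16.7, 16.1 and 23 CPM in WT and 14.5, 16.4, 13.4, 11 and 16 in Het, all far under the lowest P5 library. The log2 fold change was −2.76 ± 0.11 in WT and −2.96 ± 0.11 in Het (edgeR adjusted p 1.53e-15 and 7.43e-16). Of 9 tested sensory axon markers 5 were lower in WT and 4 in Het, 2 were higher in each, their median log2 fold change was −0.38 and −0.36, and their summed level was 51.2 to 64.6 CPM at P5 and 44.5 to 61.2 CPM at P11. Their part in the Plxna4 difference was not tested.

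The antisense RNAs within Plxna4 fell with it. Plxna4os2 (chr6:32451170-32454750, plus strand) went from 4.73 ± 0.305 to 0.69 ± 0.152 CPM in WT (SD, n = 6 and n = 5) and from 4.72 ± 0.235 to 0.457 ± 0.117 in Het, log2 fold changes of −2.77 ± 0.16 and −3.36 ± 0.17 (SE). Plxna4os1 (chr6:32511073-32515576, plus strand) fell by 3.12 ± 0.38 and 2.66 ± 0.36 on the log2 scale. Neither shares exonic bases with Plxna4, but they lie within its introns on the other strand and the library kit did not mark strand, so reads of unspliced Plxna4 RNA and of the antisense genes cannot be told apart.

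Of the other plexins, Plxnb3 rose by 2.49 ± 0.42 in WT and 2.37 ± 0.43 in Het from 0.36 ± 0.259 CPM, a level at which a library held 3 to 26 counts. Plxnb2 and Plxna1 rose in both genotypes (0.47 ± 0.05 and 0.58 ± 0.10 in WT), and Plxna2 and Plxnb1 fell in both (−0.65 ± 0.08 and −0.46 ± 0.05 in WT). Exons of Plxna1 share 10.7% of their bases with the antisense gene Gm26811. Plxnd1, the receptor of Sema3e, was not called with age, at −0.15 ± 0.13 in both WT and Het, while its ligand fell.

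**Figure D3:**
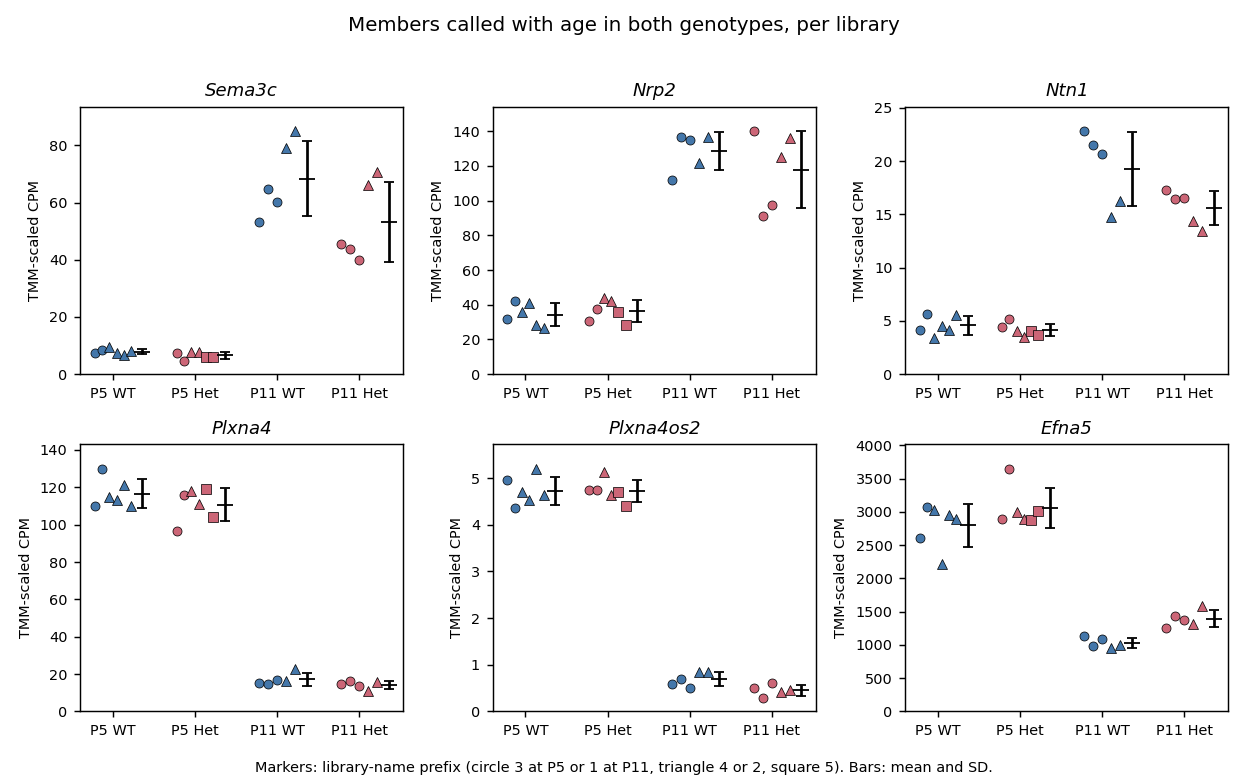
TMM-scaled CPM of 6 members in each of the 22 libraries, by group, with the mean and SD beside the points. Sema3c, Nrp2 and Ntn1 are higher in every P11 library than in any P5 library, and Plxna4, Plxna4os2 and Efna5 are lower in every P11 library.

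Ephrins were led in amount and in change by Efna5, which is known from topographic mapping of axons. It read 2610, 3080, 3030, 2220, 2950 and 2890 CPM in P5 WT and 2900, 3650, 3000, 2900, 2880 and 3010 in P5 Het. At P11 it read 1130, 979, 1090, 949 and 997 CPM in WT and 1250, 1440, 1380, 1310 and 1590 in Het. The ages did not overlap, and the fall was −1.44 ± 0.09 in WT and −1.13 ± 0.09 in Het on the log2 scale (edgeR adjusted p 6.87e-12 and 4.95e-10). Efna3 rose in both genotypes (1.14 ± 0.20 and 0.76 ± 0.20), with 14.1% of its exonic bases shared with an antisense gene. Among the ephrin-Bs, which span the membrane and signal in reverse, Efnb2 rose in both (0.30 ± 0.10 and 0.49 ± 0.10) and Efnb3 fell in both (−0.42 ± 0.17 in each).

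The Eph receptors that bind these ligands rose more often than they fell. Of 6 tested EphA receptors 4 rose and 1 fell in WT, and of 5 EphB receptors 3 rose and 1 fell. Of all genes 24.8% rose and 24.7% fell in WT. Ephb1 went from 2.71 ± 0.268 to 7.96 ± 2.39 CPM and Ephb2 from 4.75 ± 1.2 to 15 ± 2.24 CPM in WT (SD, n = 6 and n = 5), log2 fold changes of 1.55 ± 0.18 and 1.66 ± 0.16 (SE), with 1.64 ± 0.18 and 1.47 ± 0.16 in Het. Epha2, known from epithelial junctions, rose by 0.99 ± 0.13 and 1.14 ± 0.13, and Epha3 by 0.61 ± 0.10 and 0.66 ± 0.10. The highest Eph receptor, Ephb3, fell from 125 ± 14.9 to 73.1 ± 6.26 CPM in WT, −0.77 ± 0.09, and by 0.51 ± 0.09 in Het. Epha7 fell by 0.68 ± 0.11 and 0.83 ± 0.11.

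Of the 3 Slits, the repellents bound by Robo receptors, 2 rose in each genotype, beside 24.8% of all genes in WT and 24.4% in Het. Slit2 went from 65.3 ± 5.84 to 127 ± 10.6 CPM in WT (0.96 ± 0.09) and rose by 0.73 ± 0.09 in Het, and Slit1 rose by 2.42 ± 0.30 and 1.62 ± 0.29 from 0.57 ± 0.144 CPM in P5 WT. Slit3 was not called (−0.07 ± 0.11 and −0.19 ± 0.11). Robo1 fell from 108 ± 7.05 to 82.4 ± 3.33 CPM in WT (−0.39 ± 0.06) and by 0.54 ± 0.06 in Het. Robo2 was called higher in WT (0.57 ± 0.09, edgeR adjusted p 1.05e-05) and gave 0.21 ± 0.09 with an adjusted p of 0.0568 in Het; the interaction had an adjusted p of 0.415. Robo4, the endothelial Robo, was not called (0.15 ± 0.10 and 0.01 ± 0.10).

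Of the 4 netrins, 2 rose in each genotype and none fell, beside 24.8% of all genes that rose in WT and 24.4% in Het. Ntn1, the secreted netrin that guides commissural axons, ranged from 3.43 to 5.67 CPM (median 4.35) in P5 WT and from 3.48 to 5.13 (median 4.05) in P5 Het. The P11 libraries stood at 22.8, 21.5, 20.7, 14.8 and 16.3 CPM in WT and 17.3, 16.4, 16.5, 14.4 and 13.4 in Het. All P11 libraries were above all P5 libraries, by a log2 fold change of 2.07 ± 0.14 in WT and 1.91 ± 0.14 in Het (edgeR adjusted p 6.79e-12 and 3.4e-11). Ntn4, a laminin-like netrin of basement membranes, rose by 1.46 ± 0.24 in WT and 0.58 ± 0.24 in Het (edgeR adjusted p 1.65e-05 and 0.0472). Of the 4 Unc5 receptors, 2 fell in each genotype and none rose, beside 24.7% of all genes that fell in WT and 23.4% in Het. Unc5a fell from 1.06 ± 0.405 to 0.0802 ± 0.0579 CPM in WT and from 0.736 ± 0.2 to 0.0681 ± 0.0603 in Het (−3.68 ± 0.49 and −3.36 ± 0.50), with 0 to 7 counts in a P11 library, and Unc5d fell by 0.74 ± 0.15 and 0.52 ± 0.15. The abundant Unc5b and Unc5c were not called, at 0.17 ± 0.11 and −0.07 ± 0.09 in WT. Dcc, the attractive netrin receptor, gave −0.05 ± 0.39 and 0.17 ± 0.39.

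Genes that work with these families, a list of 102 co-receptors, adaptors and effectors, moved with age in both directions. Of all genes 24.8% rose and 24.7% fell in WT, and 24.4% and 23.4% in Het. From the list 100 were tested. Of these 36 rose and 31 fell in WT and 39 rose and 37 fell in Het, with medians of −0.03 and 0.05. The largest rises in both genotypes were in Ngef (5.4 ± 0.26 in WT), the exchange factor ephexin that acts behind EphA receptors, the adhesion molecule Cntn2 (4.9 ± 0.50), the small GTPase Rras2 (3.96 ± 0.12) and L1cam (2.81 ± 0.25), a partner of neuropilin. The largest falls were in Rap1gap (−2.99 ± 0.12), which turns off Rap1, Srgap1 (−2.65 ± 0.21), which acts downstream of Robo, Crmp1 (−2.35 ± 0.23), a mediator of semaphorin signalling, and Nell2 (−2.06 ± 0.12), a ligand of Robo3. Of 15 tested neurotrophic ligands and receptors, 7 rose and 4 fell in WT and 8 rose and 5 fell in Het. The GDNF-family receptors Ret (1.56 ± 0.22) and Gfra3 (1.98 ± 0.26) and the neurotrophins Bdnf (1.85 ± 0.35) and Ntf3 (1.64 ± 0.28) rose in WT, and Gfra2 (−2.29 ± 0.16), Ngfr (−1.47 ± 0.16) and Ntf5 (−0.78 ± 0.16) fell, each in the same direction as in Het.

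Few members differed with genotype. At P5 none of the 67 was called between Het and WT by edgeR, against 0.26% of all genes (0.0651% higher and 0.195% lower), and 8 had an unadjusted p under 0.05 against 6.22% of all genes. At P11 none was called, against 0.0279% of all genes (0.0232% higher and 0.00465% lower), and 12 had an unadjusted p under 0.05 against 9.85%. Over the mean of both ages 1 member was called, Sema3e, which was higher, against 0.172% of all genes (0.0651% higher and 0.107% lower), with 11 members under an unadjusted 0.05 against 6.85%. The interaction of genotype with age called none, against 0.0139% of all genes, all higher, with 8 under an unadjusted 0.05 against 10.3%. DESeq2 called 1 member at P5, 1 at P11, 2 over the mean and 1 in the interaction, and of all genes 0.591%, 0.563%, 0.693% and 0.274%. No gene of the partner list or the neurotrophic list was called in a genotype comparison. The medians of the members were 0.01 at P5 and −0.05 at P11, beside 0 and −0.01 over all genes.

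Sema3e, the class 3 semaphorin that signals through Plxnd1, was higher in Het molars over the mean of both ages. It read 30.6, 40.8, 32, 36.7, 30.7 and 30.4 CPM in P5 WT and 41.4, 45.6, 41, 40.9, 41.7 and 43.9 in P5 Het. At P11 it read 13.8, 18, 19, 16.4 and 19.9 CPM in WT and 20.9, 22.9, 19.3, 22.3 and 23.5 in Het. Every P5 Het library was above every P5 WT library, the closest being 40.9 against 40.8, and at P11 1 Het library lay within the WT range. The log2 fold change was 0.34 ± 0.08 at P5 (edgeR adjusted p 0.116) and 0.32 ± 0.09 at P11 (adjusted p 0.279), and 0.33 ± 0.06 over both ages (adjusted p 0.0282). This call rests on several single libraries. It was lost (adjusted p 0.052 to 0.0657) when any of P5 WT 1, P5 WT 3, P5 WT 5, P5 Het 2, P5 Het 6, P11 WT 4 or P11 Het 2 was left out, each giving 0.32 ± 0.07. Without the 5 libraries with raised markers the difference was 0.35 ± 0.08 with an adjusted p of 0.16. Ameloblast markers differed between the same P5 groups, with a mean log2 CPM of 6.74 to 7.43 in Het and 7.41 to 7.88 in WT. Of 14 tested 2 were called lower. By summed level the P5 groups overlapped, at 124000 to 165000 CPM in Het and 156000 to 172000 CPM in WT. At P11 the mean log2 CPM of these markers was 7.76 to 8.52 in Het and 7.66 to 8.23 in WT, with none called. Their part in the Sema3e difference was not tested.

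**Figure D4:**
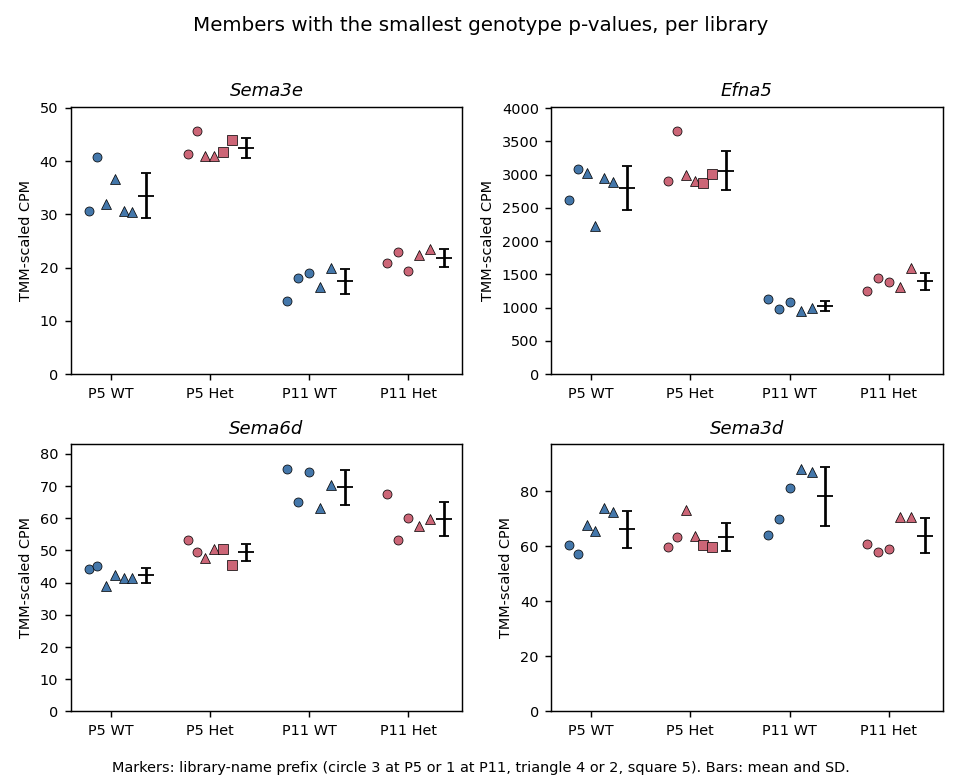
TMM-scaled CPM of Sema3e, Efna5, Sema6d and Sema3d in each library, by group, with the mean and SD beside the points and the library-name prefix as the marker shape. The P5 Het libraries of Sema3e (40.9 to 45.6 CPM) lie above all P5 WT libraries, and the P11 Het libraries of Efna5 (1250 to 1590 CPM) lie above all P11 WT libraries.

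Plxnd1, the Sema3e receptor, was not called between genotypes, with means of 92.4 ± 10.2 and 94.3 ± 7.57 CPM in P5 WT and Het (SD, n = 6 each) and 83.2 ± 19.3 and 85 ± 18.4 CPM in P11 WT and Het (n = 5 each).

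Efna5 was higher in each of the 5 P11 Het libraries (1250 to 1590 CPM) than in any of the 5 P11 WT libraries (949 to 1130 CPM), the only member whose P11 groups did not overlap, where 1.36% of all genes did so. The log2 fold change was 0.44 ± 0.10, with an edgeR adjusted p of 0.105. DESeq2 gave 0.00283, limma-voom 0.0469 and a fit with the library prefix as a block 0.0472. Efna5 was not called by edgeR with RLE size factors (adjusted p 0.1), no filter (0.105), the replicate block (0.0922) or the P11 groups alone (0.296). Without the 5 libraries with raised markers the difference was 0.37 ± 0.12 with an adjusted p of 0.535. Keratinocyte markers were lower in Het than WT at P11 in 13 of 13 tested, none called, with a median of −0.59. P11 WT 4 and P11 WT 5, at a mean of 7.4 and 6.15 log2 CPM, were among the libraries with raised markers. By summed level the keratinocyte medians were close, at 4800 CPM in P11 Het and 4760 CPM in P11 WT. Median summed levels in P11 Het and WT were 102000 and 89000 CPM for ameloblast markers, 10300 and 8050 for mural cell markers and 19600 and 24000 for odontoblast markers. The part of these lists in the Efna5 difference was not tested. At P5 the groups overlapped, and over both ages the difference was 0.28 ± 0.06 (adjusted p 0.0721).

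Sema6d was not called between genotypes by edgeR, with values of opposite sign at P5 and P11. At P5 it read 44.2, 45.1, 38.9, 42.4, 41.3 and 41.6 CPM in WT and 53.1, 49.4, 47.7, 50.3, 50.4 and 45.6 in Het. At P11 it read 75.4, 65, 74.3, 63.1 and 70.3 CPM in WT and 67.6, 53.2, 60.2, 57.7 and 59.7 in Het. All P5 Het libraries were above all P5 WT libraries, while at P11 Het was the lower group with some overlap. The log2 differences were 0.23 ± 0.06 (edgeR adjusted p 0.184) and −0.22 ± 0.07 (adjusted p 0.292), and their difference, the interaction, was −0.45 ± 0.09 with an adjusted p of 0.0947. DESeq2 gave 0.00372 for the interaction, the prefix block 0.0483 and the fit without P11 Het 1 0.0489. Leaving out any other single library did not bring a call. The interaction was not called with RLE size factors (adjusted p 0.0951), limma-voom (0.105), no filter (0.184) or the replicate block (0.102). Without the 5 libraries with raised markers it was −0.44 ± 0.10 with an adjusted p of 0.563. Sema3e and Sema6d were the members whose P5 groups did not overlap, where 0.851% of all genes did so.

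Sema3d, a class 3 semaphorin, read 64.2, 69.8, 81.3, 88.2 and 87.1 CPM in P11 WT and 60.7, 57.9, 59.1, 70.8 and 70.8 in P11 Het. Within each library prefix the P11 genotypes did not overlap: 64.2 to 81.3 CPM in WT against 57.9 to 60.7 in Het with prefix 1, and 87.1 to 88.2 against 70.8 in both with prefix 2. The difference was −0.29 ± 0.09 with an edgeR adjusted p of 0.327, and −0.29 ± 0.06 with 0.0323 when the prefix was a block. Without the 5 libraries with raised markers it was −0.13 ± 0.11 with an adjusted p of 0.752, in a fit that sets prefix 1 WT libraries against Het libraries of both prefixes. Within prefix 1 and without P11 Het 2 the values were 64.2 to 81.3 CPM in WT and 60.7 and 59.1 in Het. Each set within a prefix holds few libraries, and the share of all genes that separate within prefixes was not computed.

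The other members with the smallest genotype p-values were not called by edgeR. At P5 the receptors Epha3 (−0.24 ± 0.09), Epha2 (−0.30 ± 0.13) and Robo2 (0.22 ± 0.09) and the ligand Efna2 (−0.23 ± 0.09) had adjusted p-values of 0.598 to 0.708. At P11 Sema4b gave 0.49 ± 0.16 and Plxna4os2 −0.60 ± 0.18, with adjusted p-values of 0.329 and 0.292, and without the 5 libraries Plxna4os2 gave −0.24 ± 0.19. Over both ages Epha3 gave −0.21 ± 0.07, Sema3c −0.31 ± 0.11 and Plxna4os2 −0.30 ± 0.11. Without the 5 libraries these were −0.27 ± 0.06, −0.19 ± 0.12 and −0.11 ± 0.11. In the interaction Ntn4 gave −0.88 ± 0.33 and Efna5 0.31 ± 0.13. The fold differences of all these were under a single log2 unit in either direction.

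The library-name prefix separated members at P11 that genotype did not. Between the 4 libraries with prefix 2 and the 6 with prefix 1, within genotypes, 6 of 67 members were higher and 5 lower (16.4%, against 5.63% of all genes, of which 2.26% were higher and 3.37% lower). Plxnd1 read 106, 91.4 and 92.7 CPM in WT with prefix 1 and 66.1 and 60.1 with prefix 2, and 104, 83.5 and 103 CPM in Het with prefix 1 and 62.9 and 71.5 with prefix 2. The 2 sets did not overlap in either genotype, and the log2 difference was −0.57 ± 0.07 (edgeR adjusted p 5.88e-05). The neural ephrin Efnb3 was lower with prefix 2 (−0.73 ± 0.11), as were Unc5b (−0.42 ± 0.07), the venous receptor Ephb4 (−0.33 ± 0.06) and Ntn1 (−0.37 ± 0.11).

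Sema4d, a ligand of B-type plexins, was higher with prefix 2, at 68.7 and 75.3 CPM against 50.5 to 58.7 in WT and 59.2 and 67.9 against 49.6 to 51.6 in Het (0.38 ± 0.06, adjusted p 0.000514). Sema3c (0.57 ± 0.10), Plxnc1 (0.54 ± 0.12), Sema3b (0.37 ± 0.07), Sema3d (0.27 ± 0.06) and Efna1 (0.23 ± 0.07) were also higher. P11 WT 4 and 5 are all of the WT libraries with prefix 2 and have raised keratinocyte markers, of which 12 of 13 tested were positive and 3 called between the prefixes, with a summed level of 4800 to 8540 CPM with prefix 2 and 4040 to 4940 CPM with prefix 1. Without the 5 libraries with raised markers no WT library with prefix 2 remained, so the contrast set P11 Het 4 and 5 against P11 Het 1 and 3, and 3 members were called: Plxnc1 (0.82 ± 0.17, adjusted p 0.0393), Efnb3 (−0.75 ± 0.14, 0.0244) and Plxnd1 (−0.62 ± 0.10, 0.00903), against 0.577% of all genes. Sema4d gave 0.32 ± 0.10 and Unc5b −0.45 ± 0.11, not called. The part of the markers in the prefix differences was not tested beyond this. At P5, prefix 4 against 3 called 1 member, Plxna3 (0.45 ± 0.11, adjusted p 0.0297), or 1.49% against 3.05% of all genes (1.72% higher and 1.33% lower), and this call was lost without P5 WT 1, P5 WT 2, P5 Het 2 or P5 Het 3.

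**Figure D5:**
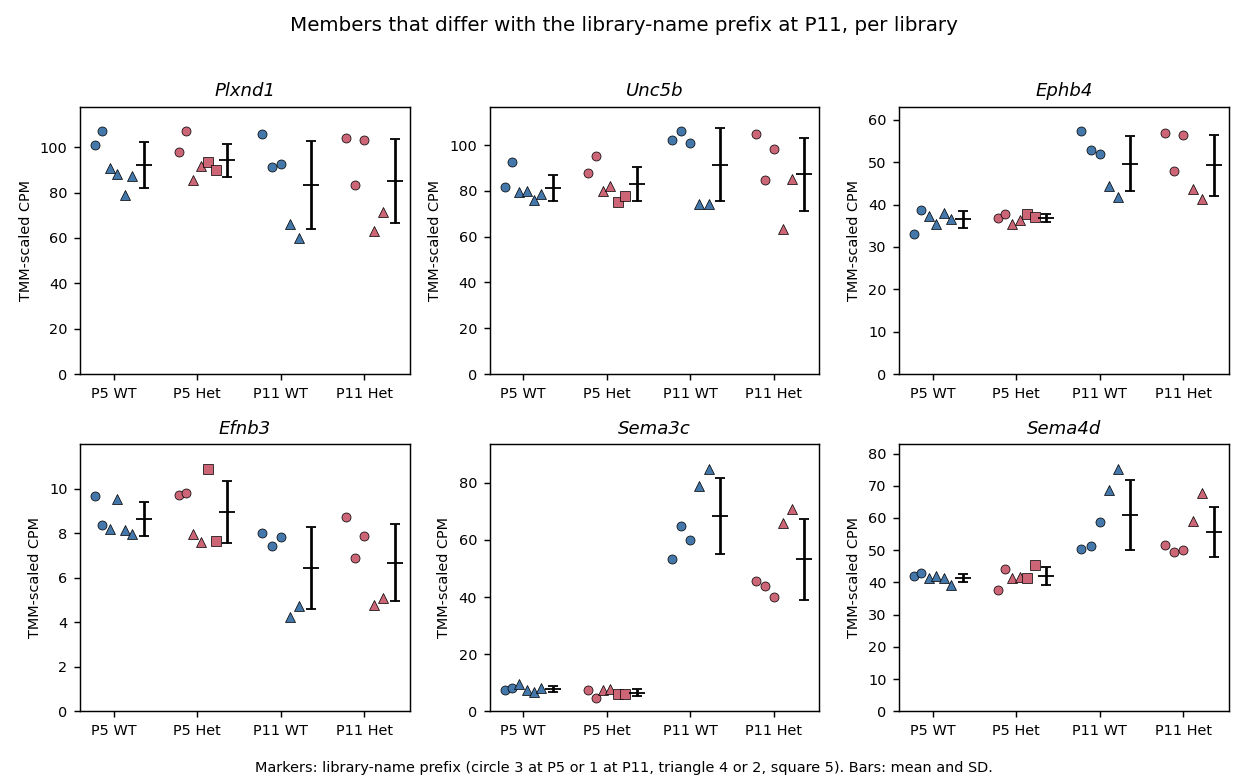
TMM-scaled CPM of 6 members called between library-name prefixes at P11, in each library, with circles and triangles for the prefixes and the mean and SD beside the points. At P11 the triangles (prefix 2) lie apart from the circles (prefix 1) for Plxnd1 (60.1 to 71.5 against 83.5 to 106 CPM) in both genotypes.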

How the data were processed

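Whole first mandibular molars gave 22 RNA libraries, prepared without strand marks and sequenced as paired ends, per the labels' protocols. The authors deposited a table of read counts per gene (55439 features) and a table of scaled expression values, a normalised signal per gene named CPM_TMM in 28711 features; the table's rows defined the members. STAR 2.7.3a, GRCm38, DESeq2, edgeR and limma are named in the submitters' processing notes; the authors' annotation is not given in the sources used here. Tests ran on the deposited counts with edgeR 4.0.16 in R 4.3.3 (TMM factors, low genes removed by filterByExpr at min.count 10 and min.total.count 15, quasi-likelihood test over all 22 libraries in 4 groups, 18 residual degrees of freedom, common dispersion 0.0381), with Benjamini-Hochberg adjustment over 21510 genes at 0.05. TMM-scaled CPM from the same counts gave levels, and the GENCODE mouse release 21 gave exon lengths and coordinates. Features that are no mouse gene (18) were at most 0.000457% of a library and were left out. Replicates differed by more than sampling noise (chi-square per degree of freedom 6.7 to 95.9). The script was tested on simulated counts.

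Alternatives were RLE size factors, DESeq2 1.42.0, limma-voom (limma 3.58.1), no filter, the groups of each comparison alone, library prefix as a block, replicate number as a block, leaving out the 5 libraries with raised markers, and leaving out each library. Named were, per genotype comparison, called members and otherwise the 6 smallest p-values; with age, the 8 largest rises and the 8 largest falls called in both genotypes; per prefix comparison, 4; and each family's highest member, with partners. Further members called with age or prefix were named after their values were seen. The members and lists were chosen with earlier results of these data known. From the neurotrophic list 1 gene that the rule names is not reported here.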

Additional observations from a re-analysis of the deposited data

Results flagged for a closer look

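In 7 of the 120 groups examined (30 named members in 4 groups each) 1 library stood apart from the rest by Dixon's test, where chance gives about 1 in 20. Efna5 read 3650 CPM in P5 Het 2, with 3010 as the next highest of its group. Sema3d read 73.1 CPM in P5 Het 3 (next 63.7), Sema3g 1.95 CPM in P5 Het 6 (next 1.2) and Slit1 4.29 CPM in P11 Het 5 (next 2.15). Plxna4 read 23 CPM in P11 WT 5 (next 16.7), a library with raised keratinocyte markers. Unc5b read 92.6 CPM (next 81.5) and Unc5c 58.4 CPM (next 48.3) in the same library, P5 WT 2. Counts on the features that are no mouse gene, which no comparison used, ranged from 41 to 160 over the libraries.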

How the results depend on the processing

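No named value changed direction under any alternative, RLE and DESeq2 scaling moved the median of all genes by at most 0.007 (log2), and the counts of members called with age stayed within 1.5 times under every alternative. The prefix block cannot adjust the age comparisons, since each prefix occurs at 1 age only. Few members were called between genotypes, so small shifts changed those counts. Higher at P5: 1 with DESeq2, 0 to 1 leaving out a library (1 without P5 WT 2). At P11: 1 higher with each of DESeq2, limma-voom and the prefix block, 1 lower with the prefix block. Over both ages: 2 higher with DESeq2, 0 without the 5 libraries with raised markers, 0 to 1 leaving out a library. Interaction: 1 lower with DESeq2 and with the prefix block, 0 to 1 leaving out a library. Prefix at P11: 1 higher and 2 lower without the 5 libraries. Prefix at P5: 2 higher and 1 lower with DESeq2, 0 and 1 in the P5 groups alone, 0 to 2 and 0 to 1 leaving out a library. The cause was not tested. Whether replicate numbers pair the libraries cannot be told from correlations, since many same-number pairs also share a prefix. Same-number pairs correlated at −0.134 to 0.208, 4 of 11 above 0.1, and 3 WT libraries correlated best with their own number. The replicate block joins the same number at P5 and P11, so it does not test pairing within an age. With this block Sema3e kept its call over both ages (0.33 ± 0.06, edgeR adjusted p 0.0205), and the prefix comparison at P11 called 0 higher and 0 lower members. At P11 numbers 1 to 3 all have prefix 1 and numbers 4 and 5 prefix 2, so block and prefix overlap. Leaving out a library there gave 5 to 6 higher and 4 to 6 lower. Depth limits Epha5, Robo3 and the 4 untested members.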
